A study of Mus musculus with 32 samples.

Results

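Messenger RNA of 10 genes of the ATF4 arm of the integrated stress response was followed in the striatum of wild-type and R6/2 mice given an HSP90 inhibitor or vehicle. The genes were chosen by name, with earlier results of these data known (Atf4, Ddit3, Trib3, Chac1, Asns, Atf5, Sesn2, Phgdh, Psat1 and Ppp1r15a). All 20 probe sets that the platform table assigns to these symbols alone were read, out of 34945 single-gene probe sets for 18193 genes. All 32 arrays came from males of a CBA by C57Bl/6 background at 12 weeks of age: 7 wild type (WT) on vehicle, 10 WT on HSP990, 7 R6/2 on vehicle and 8 R6/2 on HSP990. HSP990 (NVP-HSP990) is a small molecule that inhibits the chaperone HSP90; the design text gives 12 mg/kg and 4 h, dosing was by oral gavage, and vehicle mice received the formulation alone. R6/2 mice carry the first exon of the human huntingtin gene with an expanded CAG repeat as a transgene driven by the human promoter, so they model a fragment of the protein and not the full-length gene. The labels number the arrays without naming animals; every p-value therefore describes the spread over these samples, which may in part be technical.

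The integrated stress response begins with kinases that phosphorylate the translation factor eIF2, among them PERK (Eif2ak3) for the endoplasmic reticulum and GCN2 (Eif2ak4) for amino acid shortage. General translation then falls while the mRNA of ATF4, a bZIP transcription factor, is translated more efficiently, so the Atf4 mRNA level need not follow the protein. ATF4 induces further transcription factors (CHOP, encoded by Ddit3, and ATF5), regulators (Trib3, Sesn2, Chac1), enzymes that make amino acids (Asns, Phgdh, Psat1) and, together with other factors, GADD34 (Ppp1r15a), which brings a phosphatase to eIF2 and so closes the loop.

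ATF4 acts through the C/EBP-ATF response element, whose core was searched as TGATGNAA on both strands of the 300 bases around each annotated start (250 before to 50 after). All 10 genes had at least 1 such window among the 32851 of the RefSeq promoter table (GRCm38.p6), 12 windows in all. The core stood in 3 of these 12 windows, those of Chac1, Asns and Trib3, against 3.97% of all windows. The cyclic AMP response element TGACGTCA stood in that of Ppp1r15a (1.79% of all windows), and the heat shock element units TTCNNGAA and GAANNTTC in 1 window each, of Atf5 and Asns (8.52% and 7.86% of all windows). The GAANNTTC match of Asns overlaps its TGATGNAA match. The upstream 250 bases of 3 genes are shown because their motif matches lie there and the genes differ in how they moved; capitals mark the match to TGATGNAA in Chac1 (chr2:119350992-119351241, plus strand) and Asns (chr6:7693210-7693459, minus strand) and to TGACGTCA in Ppp1r15a (chr7:45526269-45526518, minus strand).
Chac1: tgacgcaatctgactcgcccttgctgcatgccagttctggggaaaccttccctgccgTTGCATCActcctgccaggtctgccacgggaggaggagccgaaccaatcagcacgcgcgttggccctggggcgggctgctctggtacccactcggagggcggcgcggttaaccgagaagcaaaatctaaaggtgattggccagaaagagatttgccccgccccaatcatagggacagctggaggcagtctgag
Asns: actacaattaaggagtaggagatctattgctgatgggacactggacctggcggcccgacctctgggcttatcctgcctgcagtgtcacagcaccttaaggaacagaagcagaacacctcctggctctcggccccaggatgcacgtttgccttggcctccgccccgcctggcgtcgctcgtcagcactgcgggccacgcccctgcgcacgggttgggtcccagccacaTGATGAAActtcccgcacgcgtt
Ppp1r15a: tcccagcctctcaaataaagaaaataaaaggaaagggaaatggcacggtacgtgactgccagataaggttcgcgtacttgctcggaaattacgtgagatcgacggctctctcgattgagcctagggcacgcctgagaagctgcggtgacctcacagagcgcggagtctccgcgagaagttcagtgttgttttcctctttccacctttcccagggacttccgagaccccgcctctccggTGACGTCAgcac
The match in Chac1 lies 193 to 186 bases before the start and reads TGATGCAA on the opposite strand. That in Asns lies 23 to 16 bases before the start and that in Ppp1r15a 12 to 5 bases before it, while the match in Trib3, TGATGTAA, begins 15 bases into the transcript on the opposite strand and is not printed further. These are matches of letters in short windows; sites outside them were not searched.

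The tissue carried its own markers: averaged over the 6 measured genes of the medium spiny neuron list, the log2 level ran from 11.8 to 12.2 across WT vehicle arrays. In R6/2 vehicle arrays that average was 9.40 to 11.0, and all 6 genes were lower in R6/2 on vehicle and on HSP990. In bulk tissue fewer cells of a type and less RNA per cell cannot be told apart. HSP990 changed 0 of 6 of these genes in WT and 1 in R6/2 (Drd1, lower), and 0 of 8 astrocyte markers in either genotype by limma at an adjusted p under 0.05. Of 5 endothelial markers Flt1 rose in both (0.39 in WT and 0.31 in R6/2, adjusted p = 0.000911 and 0.0237, limma) and Cldn5 fell in R6/2 (-0.73, adjusted p = 0.0481). Of 4 choroid plexus markers 0 passed, with median log2 changes of -0.70 in WT and 0.42 in R6/2. The array averages of that list ran from 6.48 to 10.6. Of 3 cortical neuron markers 0 passed (medians -0.51 and -0.54). The part of dissection in the changes with HSP990 was not tested. The 3' minus 5' difference over the Gapdh and actin control probe sets, a sign of RNA quality, had medians of 1.43 in WT vehicle, 1.04 in WT HSP990, 1.07 in R6/2 vehicle and 1.46 in R6/2 HSP990, so it was lower with treatment in WT and higher in R6/2. With this difference as a covariate no call for HSP990 among the 10 genes changed. One library stood apart: R6/2 HSP990 replicate 5 had a 3' minus 5' difference of 5.01 log2 units over the Gapdh control probe sets alone, against at most 2.23 in the other arrays. It held the highest Chac1, Asns and Trib3 and the lowest Atf5 and Ppp1r15a value of its group, so the R6/2 results of these genes are also given without it.

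HSP990 raised 6 of the 10 genes in WT mice and 3 in R6/2 mice, and lowered none past the test. In WT these were Chac1 (1.67-fold), Ddit3 (1.51-fold), Atf5 (1.50-fold), Atf4 (1.34-fold), Sesn2 (1.32-fold) and Trib3 (1.28-fold); in R6/2 they were Chac1 (1.89-fold), Sesn2 (1.60-fold) and Ppp1r15a (1.26-fold). Calls are limma's moderated test at a Benjamini-Hochberg adjusted p under 0.05 over all 18193 genes, each gene read from its brightest probe set. By the same rule 5.80% of all genes were called in WT (2.24% higher, 3.57% lower) and 3.09% in R6/2 (2.18% higher, 0.918% lower). None of the 10 was called lower. At an unadjusted p under 0.05, 1 member was lower in WT (Psat1) and 0 in R6/2. Over all 18193 genes 3363 in WT and 2879 in R6/2 had such a p, in either direction. The median log2 change of the 10 genes was 0.38 in WT and 0.13 in R6/2, where the median over all genes was -0.03 and 0.02.

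**Figure D1:**
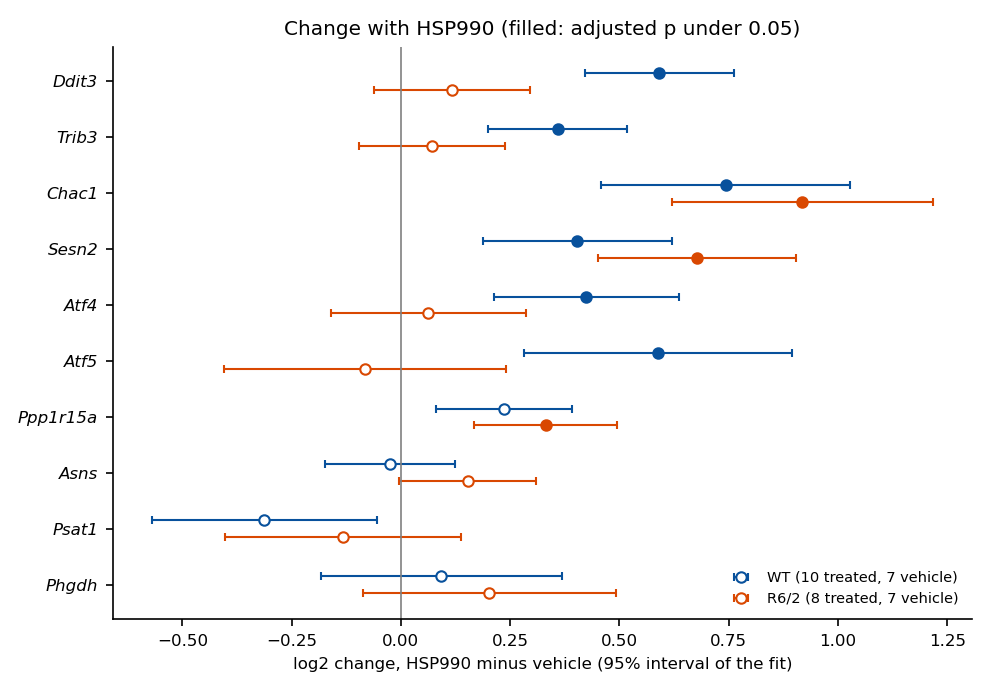
Log2 change with HSP990 (x axis) for each of the 10 genes in WT (blue) and R6/2 (orange); bars are 95% intervals of the fit without adjustment for multiple tests, and filled points passed at an adjusted p under 0.05. Chac1 and Sesn2 lie to the right of 0 in both genotypes, whereas Ddit3, Trib3, Atf4 and Atf5 passed in WT and had intervals that span 0 in R6/2.

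Among the transcription factors, Ddit3, which encodes the C/EBP family factor CHOP, gave the clearest separation. Its log2 values (probe set 1417516_at; lowest, median and highest array) were 8.44, 8.81 and 9.03 in WT vehicle, 9.04, 9.40 and 9.62 in WT HSP990, 8.41, 8.54 and 8.81 in R6/2 vehicle, and 8.62, 8.70 and 8.78 in R6/2 HSP990. All 10 treated WT arrays lay above all 7 WT vehicle arrays, though only just, while in R6/2 the treated arrays stayed inside the vehicle range. Over all genes the WT groups failed to overlap upward for 0.731% and downward for 0.742%; among these 10 genes Ddit3 alone did. The log2 change in WT was 0.59 ± 0.08 (SE, adjusted p = 1.39e-05, limma, 10 treated and 7 vehicle arrays), and in R6/2 it was 0.12 ± 0.09 (adjusted p = 0.585, 8 and 7 arrays). The second probe set of Ddit3, 1443897_at, had 0.29 ± 0.10 in WT and -0.34 ± 0.11 in R6/2 (adjusted p = 0.0957 and 0.0915 over all single-gene probe sets), so the probe sets differ in sign in R6/2.

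Atf4 itself differed between the genotypes on vehicle, where 11.9% of all genes were called higher in R6/2. Probe set 1448135_at read 9.77, 9.96 and 10.2 (lowest, median, highest) in WT vehicle, 10.1, 10.3 and 10.8 in WT HSP990, 10.1, 10.4 and 10.6 in R6/2 vehicle, and 9.99, 10.5 and 10.8 in R6/2 HSP990. WT vehicle was thus the low group, and the other 3 group means (10.4 each) did not differ beyond their spread. Atf4 rose with HSP990 in WT by 0.42 ± 0.10 log2 units (adjusted p = 0.00991, limma), and the R6/2 value was 0.06 ± 0.11 (adjusted p = 0.847). On vehicle it was 1.34-fold higher in R6/2 than in WT (0.42 ± 0.11, adjusted p = 0.00700), with 7 of 7 R6/2 arrays above the WT mean. These WT results share the same 7 vehicle arrays. Of the other probe sets, 1438992_x_at gave 0.27 ± 0.16 for HSP990 in WT and 0.48 ± 0.17 for R6/2 on vehicle (adjusted p = 0.394 and 0.0556), and 1439258_at was dim (mean 3.82 against a median of 5.77 over all probe sets). With the mean of the 3 probe sets the rise in WT did not pass (0.22, adjusted p = 0.116), whereas the difference on vehicle did.

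Atf5, a close relative of ATF4 that drives the mitochondrial stress response, had 1 probe set (1425927_a_at). Its values were 6.88, 7.25 and 7.65 in WT vehicle, 7.53, 7.81 and 8.39 in WT HSP990, 7.45, 7.59 and 7.71 in R6/2 vehicle, and 6.40, 7.57 and 8.09 in R6/2 HSP990. Treated WT arrays were all above the WT vehicle mean, and 7 of 10 were above its highest array, while treated R6/2 arrays fell on both sides of their controls. The change was 0.59 ± 0.15 in WT (adjusted p = 0.0141, limma) and -0.08 ± 0.16 in R6/2 (adjusted p = 0.866). Without R6/2 HSP990 replicate 5, the lowest array of all, the R6/2 value was 0.08 (adjusted p = 0.847).

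Of the regulators downstream, Chac1 and Sesn2 rose in both genotypes. Chac1 encodes an enzyme that cleaves glutathione. Its only probe set, 1451382_at, read 6.65, 6.97 and 7.28 in WT vehicle, 7.14, 7.68 and 8.11 in WT HSP990, 6.65, 7.02 and 7.22 in R6/2 vehicle, and 7.35, 7.95 and 8.51 in R6/2 HSP990. In R6/2 all 8 treated arrays were above all 7 vehicle arrays (0.500% of all genes did the same, and 0.170% downward), and in WT 9 of 10 were. The change was 0.74 ± 0.14 in WT (adjusted p = 0.000745, limma) and 0.92 ± 0.15 in R6/2 (adjusted p = 0.000178), which was 0.83 without R6/2 HSP990 replicate 5 (adjusted p = 0.000494). The difference between the 2 responses, R6/2 minus WT, was 0.18 with a 95% interval of -0.24 to 0.59, and 0.09 without that array.

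Sesn2 encodes a leucine sensor that restrains the growth kinase complex mTORC1. Probe set 1425139_at read 6.48, 6.73 and 6.85 in WT vehicle, 6.79, 7.10 and 7.39 in WT HSP990, 6.12, 6.61 and 7.00 in R6/2 vehicle, and 6.90, 7.36 and 7.64 in R6/2 HSP990. Treated arrays exceeded the highest vehicle array in 8 of 10 cases in WT and 7 of 8 in R6/2. The change was 0.40 ± 0.11 in WT (adjusted p = 0.0172, limma) and 0.68 ± 0.11 in R6/2 (adjusted p = 0.000260), with an interval of -0.04 to 0.59 for the difference. A second probe set, 1451599_at, moved the same way by 0.23 ± 0.09 and 0.30 ± 0.09 without passing (adjusted p = 0.139 and 0.0774 over all single-gene probe sets).

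Trib3, a pseudokinase that binds CHOP and AKT, was highest in treated WT mice, as Ddit3 was. Probe set 1426065_a_at read 4.81, 5.11 and 5.46 in WT vehicle, 5.26, 5.45 and 5.76 in WT HSP990, 4.72, 4.85 and 5.05 in R6/2 vehicle, and 4.78, 4.93 and 5.08 in R6/2 HSP990. No treated R6/2 array reached the lowest treated WT array. Trib3 rose in WT by 0.36 ± 0.08 (adjusted p = 0.00330, limma), and in R6/2 the value was 0.07 ± 0.08 (adjusted p = 0.753), or 0.05 without R6/2 HSP990 replicate 5. The second probe set, 1456225_x_at, also rose in WT (0.29 ± 0.09, adjusted p = 0.0486), and both probe sets were dim (gene value 5.12 on average, against the 5.77 given above), which limits how well their folds are known.

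Ppp1r15a, which encodes GADD34, the subunit that leads eIF2 dephosphorylation, had 1 probe set (1448325_at). Its values were 7.58, 7.62 and 7.80 in WT vehicle, 7.63, 7.92 and 8.07 in WT HSP990, 7.22, 7.53 and 7.89 in R6/2 vehicle, and 7.62, 7.93 and 8.04 in R6/2 HSP990. It rose in R6/2 by 0.33 ± 0.08 (adjusted p = 0.0160, limma), and the WT value of 0.24 ± 0.08 did not pass (adjusted p = 0.0624). The difference between the responses was 0.10, with an interval of -0.13 to 0.32. Without R6/2 HSP990 replicate 5 the R6/2 value was 0.37 (adjusted p = 0.00761). The call was lost without R6/2 vehicle replicate 7, the lowest array (0.28, adjusted p = 0.0613), and in a fit of those groups alone (adjusted p = 0.112). In WT it passed in a fit of those groups alone (adjusted p = 0.0321), without WT HSP990 replicate 9 (0.27, adjusted p = 0.0341), and when R6/2 HSP990 replicate 5 or R6/2 vehicle replicate 1 or 7 was left out (adjusted p = 0.0353 to 0.0495).

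The amino acid enzymes did not pass for HSP990 in either genotype. Asns, asparagine synthetase, read 9.70, 9.80 and 9.99 in WT vehicle, 9.63, 9.80 and 10.1 in WT HSP990, 9.81, 10.0 and 10.1 in R6/2 vehicle, and 9.95, 10.1 and 10.6 in R6/2 HSP990. Its change was -0.03 in WT (95% interval -0.17 to 0.12) and 0.15 in R6/2 (-0.0037 to 0.31), so a rise of the size seen for Ddit3 in WT lies outside both intervals. Without R6/2 HSP990 replicate 5, which held the highest value, the R6/2 change of Asns was 0.09 (adjusted p = 0.600, limma). Phgdh and Psat1 encode consecutive enzymes of serine synthesis. Phgdh had 0.09 ± 0.14 in WT and 0.20 ± 0.14 in R6/2 (adjusted p = 0.790 and 0.548, limma). Its 4 probe sets gave values between 0.09 and 0.18 in WT and between 0.04 and 0.26 in R6/2. Of these, 1426658_x_at was lower in R6/2 than in WT on HSP990 (-0.27 ± 0.11, adjusted p = 0.0476 over all single-gene probe sets, limma). Its lowest value there, 8.31, was in R6/2 HSP990 replicate 5. With HSP990 Psat1 leaned downward, at -0.31 ± 0.13 in WT and -0.13 ± 0.13 in R6/2 (adjusted p = 0.151 and 0.701). In WT 9 of 10 treated arrays were below the vehicle mean. Its second probe set, 1451064_a_at, gave -0.10 ± 0.14 and -0.20 ± 0.14 (adjusted p = 0.777 and 0.542 over all single-gene probe sets, limma). Astrocytes are known to make much of the brain's serine; the astrocyte marker list had median array means of 10.4 in WT vehicle, 10.4 in WT HSP990, 10.4 in R6/2 vehicle and 10.2 in R6/2 HSP990.

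**Figure D2:**
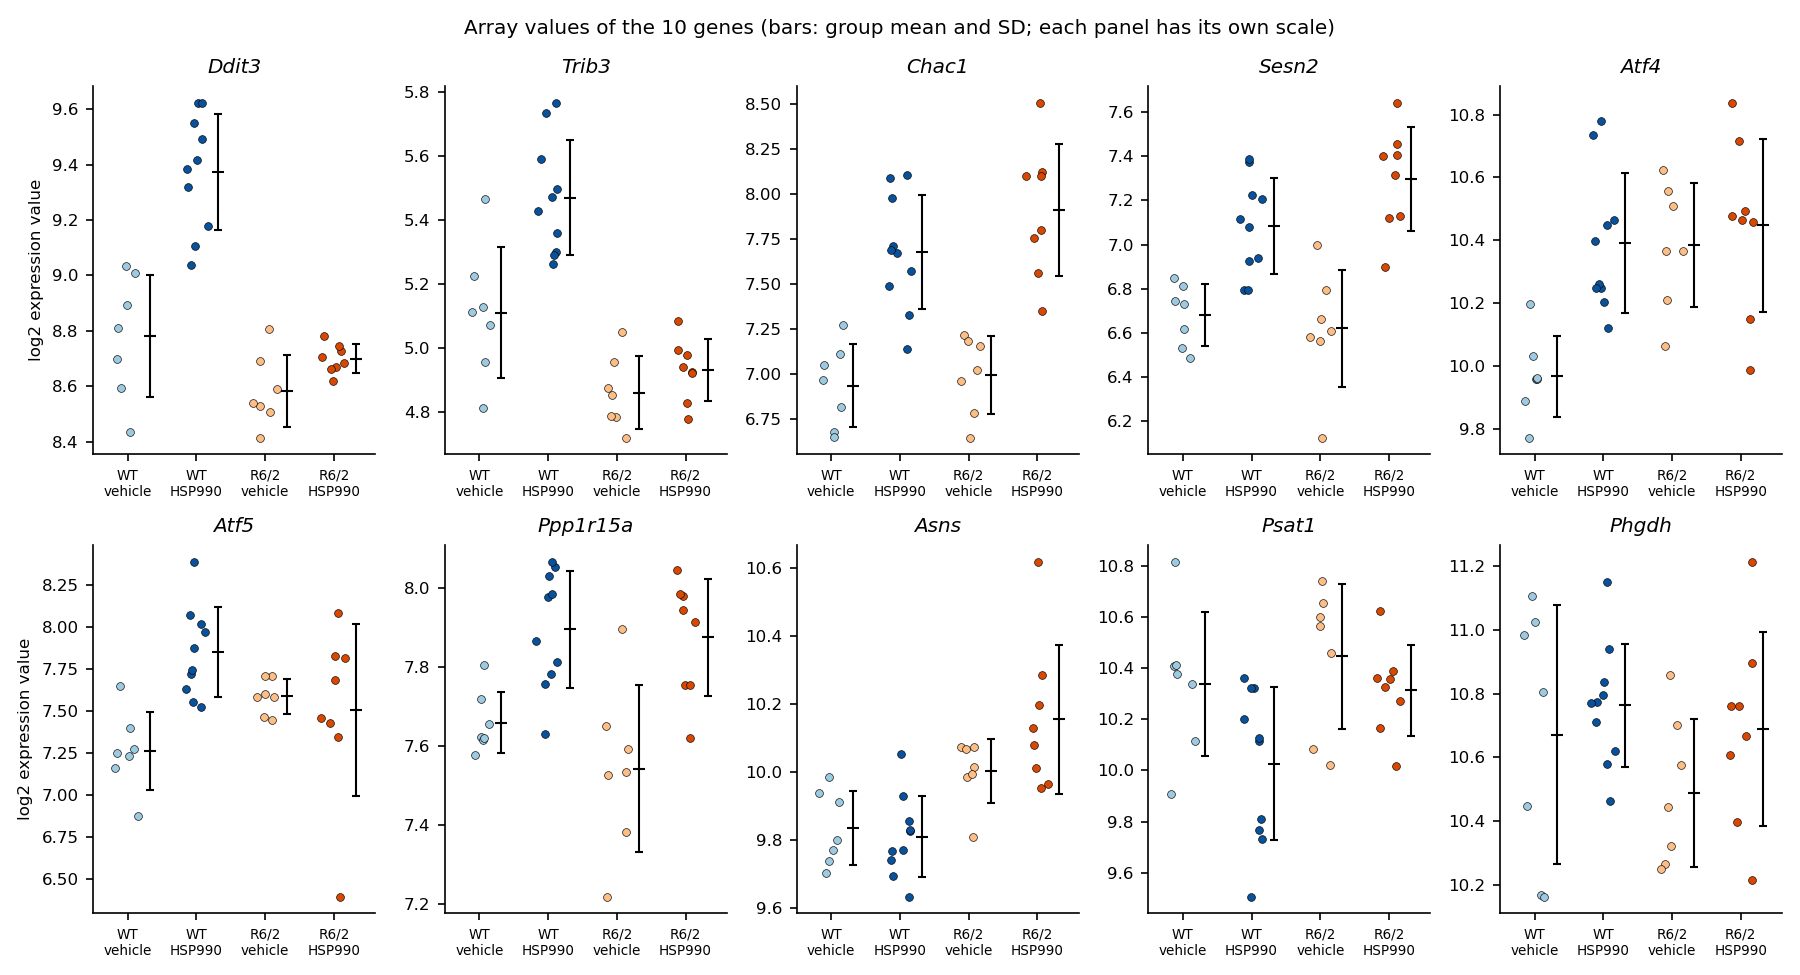
Log2 values of every array for the 10 genes, from the brightest probe set of each, in the 4 groups; bars beside the points are the mean and SD, and each panel has its own vertical scale. The WT HSP990 arrays stand above both R6/2 groups for Ddit3 and Trib3, both HSP990 groups are raised for Chac1 and Sesn2, and WT vehicle is the low group for Atf4.

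The interaction is the HSP990 response of R6/2 minus that of WT. Of the 10 genes 0 passed it with limma, where 0.247% of all genes did (0.170% higher and 0.0770% lower). At an unadjusted p under 0.05 there were 4, all with the smaller response in R6/2, against 2345 of 18193 genes. These were Atf5 (R6/2 minus WT -0.67 ± 0.22, adjusted p = 0.173, and -0.51 without R6/2 HSP990 replicate 5), Ddit3 (-0.47 ± 0.12, adjusted p = 0.0778), Atf4 (-0.36 ± 0.15, adjusted p = 0.302) and Trib3 (-0.29 ± 0.11, adjusted p = 0.264). With the mean of its probe sets Ddit3 passed (-0.55, adjusted p = 0.00587). A call in WT and none in R6/2 is therefore not shown to differ for Atf4, Atf5 and Trib3, and for Ddit3 it depends on how its probe sets are combined.

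Under HSP990 the genotypes differed most for Ddit3 and Trib3. Ddit3 was 1.60-fold lower in R6/2 than in WT (log2 -0.67 ± 0.08, adjusted p = 7.30e-08, limma, 8 and 10 arrays) and Trib3 1.45-fold lower (-0.54 ± 0.08, adjusted p = 9.29e-07). All 8 R6/2 arrays lay below all 10 WT arrays for both genes, and the second probe sets gave -0.69 ± 0.10 and -0.64 ± 0.08. Without R6/2 HSP990 replicate 5 the differences were -0.67 for Ddit3 and -0.56 for Trib3. Asns was higher in R6/2 (0.35 ± 0.07, adjusted p = 0.000220), with 8 of 8 arrays above the WT mean; without R6/2 HSP990 replicate 5 the value was 0.28 (adjusted p = 0.000458). Differences between the genotypes were common under HSP990: 33.6% of all genes were called, 22.6% higher and 11.0% lower, and the groups did not overlap upward for 6.04% and downward for 3.36%. The count of 1 higher and 2 lower of 10 is thus near that background. Atf5 had -0.35 ± 0.14 (adjusted p = 0.0656, limma), which was -0.19 (adjusted p = 0.221) without R6/2 HSP990 replicate 5. It passed in 3 of 10 other settings and without any of 4 other single arrays (adjusted p as low as 0.0200). Psat1 had 0.29 ± 0.12 (adjusted p = 0.0681) and passed in 2 of 10 other settings and without any of 4 single arrays. Its second probe set gave 0.17 ± 0.13 (adjusted p = 0.380). Chac1 had 0.23 ± 0.13, which was 0.15 without R6/2 HSP990 replicate 5. Markers of several cell types were lower beside these differences: all 6 of medium spiny neurons, 5 of 8 of astrocytes (1 was higher), 4 of 5 of oligodendrocytes and 4 of 6 of microglia. Their part in the differences under HSP990 was not tested.

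On vehicle Atf4 was higher in R6/2 and Trib3 lower, and the other 8 genes did not pass (21.5% of all genes were called, 11.9% higher and 9.60% lower). For none of the 10 did the groups separate fully, which they did for 1.53% of all genes upward and 2.37% downward. Trib3 differed by -0.25 ± 0.08 (adjusted p = 0.0317, limma), with 7 of 7 R6/2 arrays below the WT mean. That call was lost in 3 of 9 other settings and without any of 6 single arrays, with an adjusted p of up to 0.0978 without WT vehicle replicate 6. The other probe set of Trib3 gave -0.49 ± 0.10 (adjusted p = 0.000430). Ddit3 had -0.20 ± 0.09 (adjusted p = 0.121), which became -0.26 (adjusted p = 0.0345) without WT vehicle replicate 4. On vehicle all 6 medium spiny neuron markers were lower in R6/2, as were 1 of 8 of astrocytes, 1 of 5 of oligodendrocytes and 1 of 6 of microglia, and their part in these differences was not tested.

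**Figure D3:**
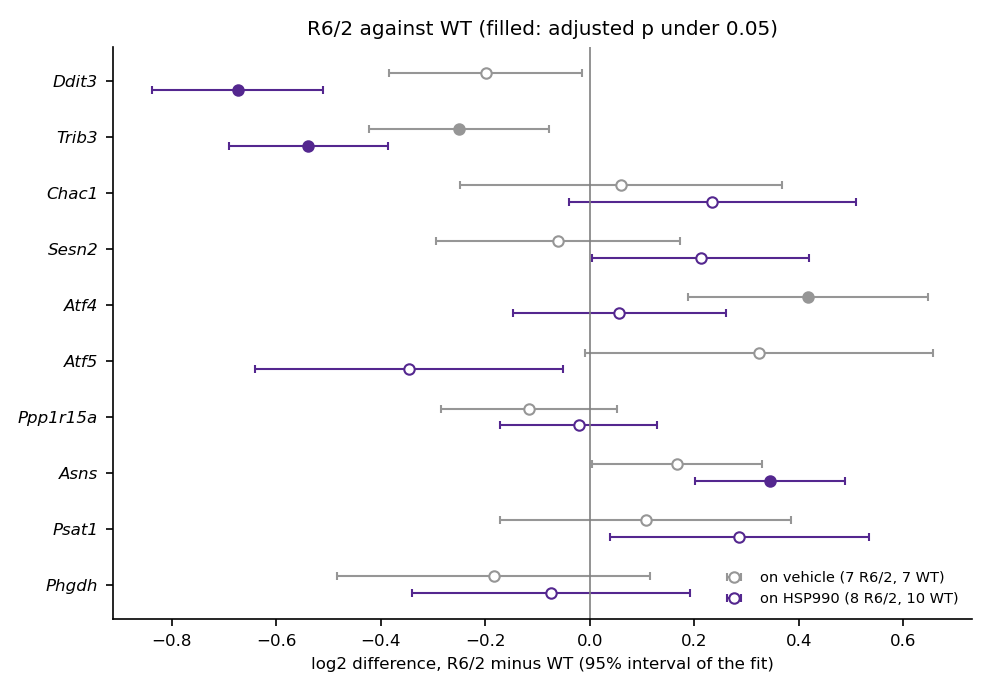
Log2 difference, R6/2 minus WT (x axis), for each gene on vehicle (grey) and on HSP990 (purple); bars are 95% intervals of the fit without adjustment for multiple tests, and filled points passed at an adjusted p under 0.05. Ddit3 and Trib3 lie at -0.67 and -0.54 on HSP990, and Atf4 at 0.42 on vehicle and 0.06 on HSP990.

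Other genes of the pathway moved in part. Of 84 genes listed in 6 groups, 81 were measured; 6 rose and 6 fell with HSP990 in WT and 8 rose and 5 fell in R6/2, with median log2 changes of -0.02 and 0.07. Over all genes the shares were 2.24% higher and 3.57% lower in WT and 2.18% and 0.918% in R6/2, and the medians -0.03 and 0.02. Of 12 kinases and eIF2 factors, 1 changed in WT (Eif2b2, a subunit of the eIF2 exchange factor, -0.30 ± 0.09, adjusted p = 0.0387, limma) and none in R6/2, where 2 were higher at an unadjusted p under 0.05. The mRNAs of the kinases PERK and GCN2 (Eif2ak3 and Eif2ak4) had log2 changes of -0.04 and -0.09 in WT and 0.20 and -0.03 in R6/2. For the kinase genes Eif2ak1 and Eif2ak2 the changes were 0.01 and -0.16 in WT, and 0.50 and 0.13 in R6/2. The R6/2 value of Eif2ak1 was the largest of this group and did not pass (adjusted p = 0.132, limma).

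Amino acid supply genes rose in both genotypes in a few cases. Of 9 transporters 2 rose in WT, Slc7a11, the cystine importer (0.55 ± 0.13), and Slc7a1, a cationic amino acid importer (0.27 ± 0.08), and 1 rose in R6/2 (Slc7a1, 0.34 ± 0.09). Of 12 amino acid and one-carbon enzymes, Psph, the last enzyme of serine synthesis, rose in both (0.53 ± 0.10 in WT, adjusted p = 0.000506, and 0.48 ± 0.10 in R6/2, adjusted p = 0.00529, limma). Phgdh and Psat1 in the same route did not pass, though in R6/2 the 95% interval of Phgdh (-0.09 to 0.49) holds the Psph value. Mthfd2, a mitochondrial folate enzyme, also rose in both (0.30 ± 0.09 and 0.50 ± 0.09), Aldh18a1, an enzyme of proline synthesis, rose in R6/2 (0.57 ± 0.15), and the transaminase genes Gpt2 and Bcat1 fell in WT (-0.62 ± 0.15 and -0.47 ± 0.10). Of 18 other targets and partners of ATF4 or CHOP, 1 rose in each genotype, the transcription factor gene Atf3 (0.27 ± 0.08 and 0.35 ± 0.09). Of 12 tRNA synthetases 1 rose in WT (Cars, 0.74 ± 0.16) and 1 in R6/2 (Aars, 0.43 ± 0.11).

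Some genes of the endoplasmic reticulum branches of XBP1 and ATF6 moved as well. These are mRNA levels, and the activity of the XBP1 and ATF6 proteins was not measured. Xbp1, whose product is the transcription factor of that branch, fell in both genotypes (-0.50 ± 0.07 in WT, adjusted p = 2.62e-06, and -0.53 ± 0.07 in R6/2, adjusted p = 5.29e-06, limma). Manf, a secreted protein of the endoplasmic reticulum, also fell in both (-0.34 ± 0.09 and -0.45 ± 0.09), as did Sdf2l1, a chaperone partner (-0.42 ± 0.12 and -0.43 ± 0.12). The chaperone genes Hspa5 and Pdia6 fell in R6/2 (-0.32 ± 0.08 and -0.41 ± 0.11), and their WT values were -0.08 and -0.06. Of 18 genes 0 rose and 3 fell in WT, and 2 rose and 5 fell in R6/2, with medians of -0.09 in each. Over all genes 2.24% were called higher and 3.57% lower in WT, and 2.18% and 0.918% in R6/2. The 0 of 18 called higher in WT is thus near the share of all genes. At an unadjusted p under 0.05, 0 were higher and 7 lower in WT, against 3363 of 18193 genes in either direction. The 2 that rose in R6/2 were Ern1, the kinase and nuclease that activates XBP1 (0.34 ± 0.09), and Syvn1, a ubiquitin ligase (0.29 ± 0.07). 

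Between the genotypes on HSP990, 8 of 12 kinases and eIF2 factors were higher in R6/2, among them Eif2b2 (0.51 ± 0.09), Eif2ak3 (0.48 ± 0.10) and Eif2ak2 (0.64 ± 0.13), and none was lower; 22.6% of all genes were higher. Of the other targets Nupr1, a stress-induced chromatin protein gene, was lower in R6/2 on vehicle and on HSP990 (-0.72 ± 0.14 and -0.96 ± 0.12), and Xpot, a tRNA exporter gene, was higher (0.39 ± 0.08 and 0.57 ± 0.07); Herpud1 was higher on vehicle (0.30) and Ddit4 lower on HSP990 (-0.72). Of 12 tRNA synthetases 3 were higher on vehicle (Tars 0.24, Nars 0.25, Eprs 0.18), and 6 were higher and 1 lower on HSP990, led by Nars, Lars and Gars (0.45, 0.36 and 0.25). Slc7a1 was higher in both (0.32 and 0.39), Slc38a2 was higher on HSP990 (0.31), and Slc6a9, a glycine transporter gene, was lower on vehicle (-0.44). Of the amino acid and one-carbon enzymes Pck2 was higher on vehicle (0.40), and Bcat1, Mthfd2 and Shmt2 on HSP990 (0.45, 0.34 and 0.48). Of the kinases and eIF2 factors Eif2b3 was higher on vehicle (0.20). In the XBP1 and ATF6 branch 3 of 18 genes were higher on vehicle, Hspa5, Manf and Edem1 (0.42, 0.39 and 0.31). Another 2 were lower there, Hyou1 and Calr (-0.42 and -0.27). On HSP990, 4 were higher and 3 lower, among them Ern1 and Edem1 (0.62 and 0.58) and Atf6 (-0.48). Over all genes 11.9% were higher and 9.60% lower on vehicle, and 22.6% and 11.0% on HSP990. None of the 81 genes passed the interaction with limma, and 12 had an unadjusted p under 0.05.

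**Figure D4:**
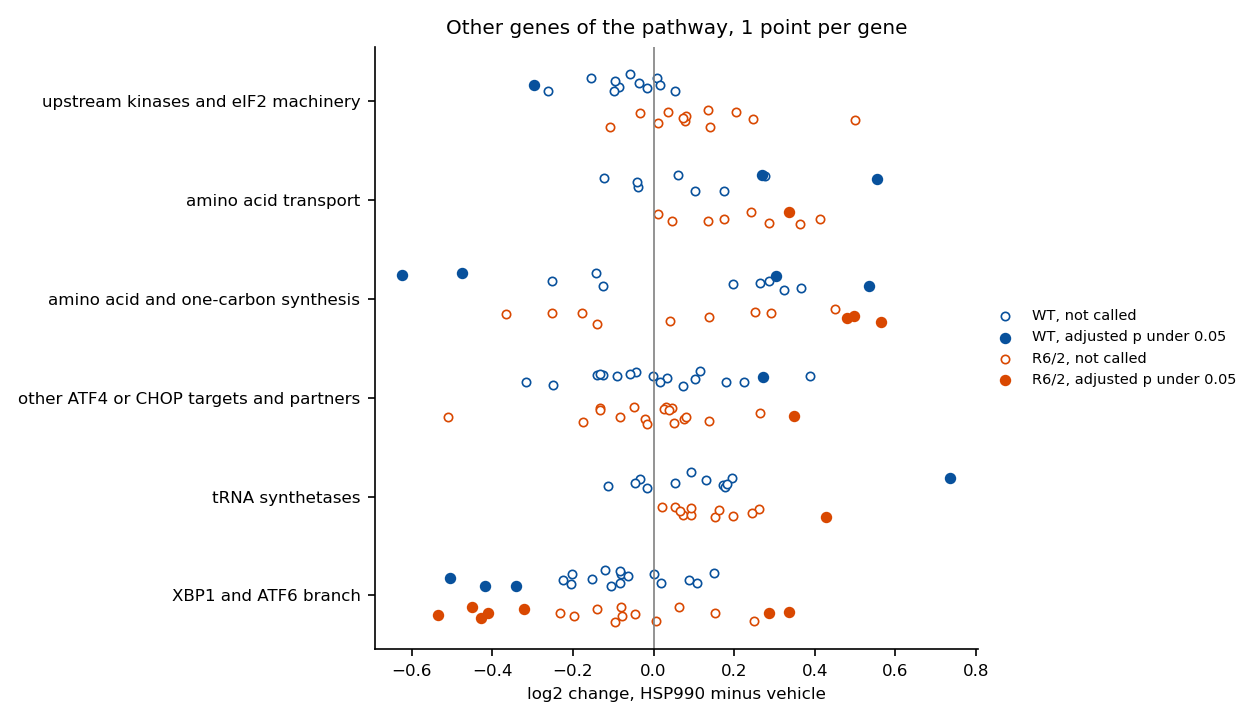
Log2 change with HSP990 (x axis) for the 81 measured genes of 6 pathway groups, 1 point per gene, in WT (blue) and R6/2 (orange); filled points passed at an adjusted p under 0.05. Filled points lie on both sides of 0 for the amino acid enzymes, and 8 of the 10 filled points of the XBP1 and ATF6 branch lie below 0.

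Within the groups, arrays with high Chac1 also tended to hold high Asns and Atf4 but not high Ddit3 or Trib3. After each gene was centred on its group means, the Pearson correlation with Chac1 over the 32 arrays was 0.68 for Asns, 0.57 for Atf4 and 0.47 for Sesn2, against -0.05 for Ddit3 and 0.06 for Trib3. Without R6/2 HSP990 replicate 5 these values were 0.60, 0.62, 0.46, -0.06 and -0.03. The other members had 0.21 (Ppp1r15a), -0.04 (Phgdh), -0.29 (Psat1) and -0.31 (Atf5). Without that array they had 0.40, -0.01, -0.27 and -0.05. The genes most like Chac1 by this measure were Slc7a3 (0.78), Camk2n2 (0.78) and Tmem25 (0.76), with Spearman's rho of 0.80, 0.80 and 0.75; they stayed at 0.74, 0.76 and 0.71 without R6/2 HSP990 replicate 5. Asns ranked 26 and Atf4 161 among all other genes. The points share arrays, so RNA quality and dissection enter every such value, and the top genes were picked for their correlation.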

How the data were processed

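The authors deposited log2 expression values for 45101 probe sets on 32 arrays, with array medians of 5.73 to 5.78; the scale was read from the values, and how they were normalized is not stated in the labels or file headers read here. Per the labels, biotin-labelled cRNA was made from total RNA with a 3' in vitro transcription kit, so signal depends on RNA integrity. Arrays have no read depth: their number limits the precision.

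Probe sets with 1 gene symbol in the platform annotation (34945) were kept and symbols updated through gene identifiers; 2 probe sets shared by Phgdh and another gene were left out. Each gene was read from its probe set with the highest mean. The 4 group means were fitted in limma 3.58.1 (R 4.3.3) over 18193 genes, with no filter on low values; log2 changes carry the standard error of the fit, and Benjamini-Hochberg adjustment ran over all genes. A second fit covered all single-gene probe sets. The fit was tested on simulated data. Alternatives were quantile normalization, median centring, a filter on dim probe sets, averaging each gene's probe sets, fitting the compared groups alone, array weights, a robust and trended variance, a block on replicate number, 3' bias as a covariate or its 2 strongest arrays removed, and each array left out.

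The members and the lists were chosen with earlier results of these data known. The 10 members are named throughout. Of each pathway group up to 3 called genes with the smallest p per comparison were named. So were the 3 genes most correlated with Chac1. The HSP990 values of Eif2ak1, Eif2ak2, Eif2ak3, Eif2ak4, Ern1, Hspa5, Pdia6, Mthfd2, Sdf2l1 and the endothelial markers were added after they were seen. The vehicle values of Hyou1 and Calr were also named after they were seen. Listed genes without a single-gene probe set were not analysed here. Promoter sequences come from RefSeq (GRCm38.p6).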

Additional observations from a re-analysis of the deposited data

Results flagged for a closer look

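In 2 of 40 combinations of gene and group, 1 array lay far from the others by Dixon's test, and chance alone gives about 1 in 20 such groups. Atf5 was at 6.40 in R6/2 HSP990 replicate 5, below 7.35 to 8.09 in the other 7 arrays; this is the array with the strongest 3' bias. Asns was at 9.81 in R6/2 vehicle replicate 7, below 9.98 to 10.1 in the other 6.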

How the results depend on the processing

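Over 2085 combinations of gene, comparison and setting, 2046 kept the side of the threshold, 12 lost a call, 27 gained one and none reversed a call. Direction was compared only where at least 1 of the values was called, and several uncalled values crossed 0. Ddit3 for HSP990 in R6/2 ranged from -0.11 to 0.15 and was negative with the mean of its probe sets. Others were Atf5 for HSP990 in R6/2 (-0.16 to 0.11), Asns for HSP990 in WT (-0.05 to 0.02) and Sesn2 for R6/2 on vehicle (-0.16 to 0.02). No setting changed the calls of Chac1, Ddit3, Trib3, Atf5 and Sesn2 for HSP990 in WT, of Chac1 and Sesn2 for HSP990 in R6/2, or of Ddit3, Trib3 and Asns for the genotypes on HSP990; Trib3 has no value after the removal of dim probe sets. With each array left out, the members higher with HSP990 were 6 to 7 in WT and 2 to 3 in R6/2, and 0 were lower; for R6/2 on vehicle 1 was higher (1 to 1) and 0 to 2 lower, for R6/2 on HSP990 1 to 2 were higher and 2 to 3 lower, and for the interaction 0 to 0 in either direction. For R6/2 on vehicle, 2 members were higher (main value 1) in a fit of those groups alone, with the 3' bias covariate and after removal of the 2 arrays whose 3' bias was strong. There 0 were lower (main value 1) without dim probe sets, in the fit of those groups alone and with those 2 arrays removed. For R6/2 on HSP990, 2 were higher with quantile normalization and with array weights. Array weights made 1 member lower in WT (Psat1, adjusted p = 0.0470), and the mean of the probe sets made 1 pass the interaction (Ddit3). The cause of these changes was not tested, apart from the removal of Trib3 with the dim probe sets. The labels do not say what the replicate numbers stand for, so a batch shared by same-numbered arrays cannot be told from them. Deviations of same-numbered arrays in other groups correlated at 0.04 on average (-0.29 to 0.38), and those of other-numbered arrays at -0.0041. With replicate number as a block 0 members were lower in R6/2 on vehicle (Trib3, adjusted p = 0.0505), and Ppp1r15a in WT and Atf5 on HSP990 passed (adjusted p = 0.0449 and 0.0266).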
